A study of Mus musculus with 8 samples.

Results

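The proteasome genes of the mouse were examined on 8 microarrays of the pancreatic lymph node from mice without a working Deaf1 gene. Members were the non-control probes whose gene name in the 4-week scanner files starts with Psma, Psmb, Psmc, Psmd, Psme, Psmf or Psmg, with the brightest probe standing for each gene. This gave 44 genes from 69 probes, among 18410 genes tested. Of the 69 probes 66 passed a filter on dim signal, and all 44 genes did. The probe used for each gene lay well above background in both channels on all 8 arrays. No gene name in the files starts with Psmg. Psmc3ip entered by its name only, since its protein is a meiotic recombination factor and not a subunit. The 5 immune subunits are Psmb8, Psmb9, Psmb10, Psme1 and Psme2, and the other 39 members are their comparison within the family.

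Each array set 1 Deaf1 knockout (KO) mouse, labelled with Cy5, against a pool of wild-type (WT) littermates of the same age, labelled with Cy3. All mice were BALB/c, and the tissue on every array was the whole pancreatic lymph node. There were 2 arrays of KO mice aged 4 weeks against a pool of 2 WT mice, 3 arrays at 12 weeks against a pool of 3, and 3 arrays at 30 weeks against a pool of 3. No array had the dyes exchanged, and none set a WT mouse against a pool. The tests therefore hold the spread between KO mice but not that between WT mice, and a difference between ages is also one between pools. Whether the arrays of an age shared 1 pool extract is not given in the sources used here. Values are log2 ratios of KO over WT pool, so a negative ratio is a lower signal in the KO mouse, and n is the number of arrays.

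The proteasome degrades proteins tagged with ubiquitin. Its 20S core is a barrel of alpha rings around beta rings, in which Psmb5, Psmb6 and Psmb7 carry the cutting sites. Its 19S cap recognises and unfolds the tagged protein, by a ring of ATPases (Psmc genes) and a set of other subunits (Psmd genes). Under interferon gamma, and constitutively in many immune cells, Psmb8, Psmb9 and Psmb10 take the places of Psmb5, Psmb6 and Psmb7, and the Psme1 and Psme2 proteins form an alternative cap, PA28. This immunoproteasome makes many of the peptides that class I molecules show to T cells.

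A few facts of the whole series bear on these genes. Between 46.8% and 71.4% of probes lay well above background in the KO channel, and 37.2% to 62.6% in the WT channel. The part of Deaf1 that was deleted is not given in the sources used here, so its probes do not check the genotype. Its brightest probe had ratios of −0.22 and −0.12 at 4 weeks, 0.34, 0.35 and 0.32 at 12 weeks, and 0.14, 0.00 and 0.15 at 30 weeks, and it was called higher at 12 weeks (0.34 ± 0.06, adjusted p = 0.0344, limma). A second Deaf1 probe had −0.74, 3.11 and −0.62 at 30 weeks, so on replicate 2 of that age it read far higher in KO than in the WT pool. Replicate 2 of 12 weeks stood apart in genes of the sex chromosomes (Xist 5.32 and Eif2s3y −4.86). Ddx3y, a Y chromosome gene, lay well above background in the WT channel on 3 arrays, all at 12 weeks, and in the KO channel on 2. The WT signal of this gene thus differed between the ages, so a difference of sex cannot be told apart from one of age. Replicate 2 of 30 weeks stood apart in 8 pancreatic acinar genes, with a median of 4.15 against −4.25 and −4.54 on the other arrays of that age. Replicate 1 of 12 weeks stood apart in its likeness to the 30-week arrays, in the members and over all genes, as described further on. A lymph node is a mixture of cells, in which fewer cells of a type and less RNA per cell cannot be told apart.

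Calls among the members gathered at 30 weeks, were fewer at 4 weeks and came to 1 at 12 weeks. In limma's moderated test over all genes (Benjamini-Hochberg adjusted p under 0.05, termed called), 30 of the 44 members were called at 30 weeks, 7 higher and 23 lower in KO. The background was 39.1% of all genes called, 20.7% higher and 18.4% lower. At 4 weeks 15 members were called, 9 higher and 6 lower, with a background of 22.7%, 15.3% higher and 7.38% lower. At 12 weeks only Psma1 was called, higher, with a background of 2.61%, 1.23% higher and 1.37% lower, while an unadjusted p under 0.05 was found for 17 members and for 25.7% of all genes. Over the mean of the 3 ages 31 members were called, 7 higher and 24 lower, with a background of 44.1%, 25.4% higher and 18.7% lower. The lower calls made up 52.3% of the members at 30 weeks and 54.5% in the mean, above these backgrounds, and the higher calls 15.9% and 15.9%, below them. The median ratio of the members was −0.08 at 4 weeks, −0.08 at 12 weeks and −0.25 at 30 weeks, against 0.02, 0.02 and 0.03 for all genes tested. Without both replicates 2 named above, 27 members were called at 30 weeks, 5 at 12 weeks and 16 at 4 weeks, where 35.9%, 10% and 27.3% of all genes were called.

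The direction of the family depends on how each array is scaled. The members are bright genes (median log2 signal 11.8, against 8.39 for all genes), and the loess step used here removes the trend of the ratio with brightness. With arrays only centred on their median, 39 members were called higher and 0 lower at 4 weeks, 37 and 0 at 12 weeks, and 10 and 3 at 30 weeks. Of all genes, 50.8% were then called higher and 2.11% lower at 4 weeks, 52.7% and 3.3% at 12 weeks, and 24.6% and 3.34% at 30 weeks, so the array as a whole turned higher. Under that scaling the median of all genes itself moved to 0.49 at 4 weeks, 0.41 at 12 weeks and 0.15 at 30 weeks. Relative to it the median of the members was 0.25, 0.19 and −0.05. The scanner's own log ratio gave 9 higher and 9 lower at 4 weeks and 5 higher and 20 lower at 30 weeks, with 19.5% of all genes higher and 15.3% lower at 4 weeks, and 21% and 17.8% at 30 weeks.

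**Figure D1:**
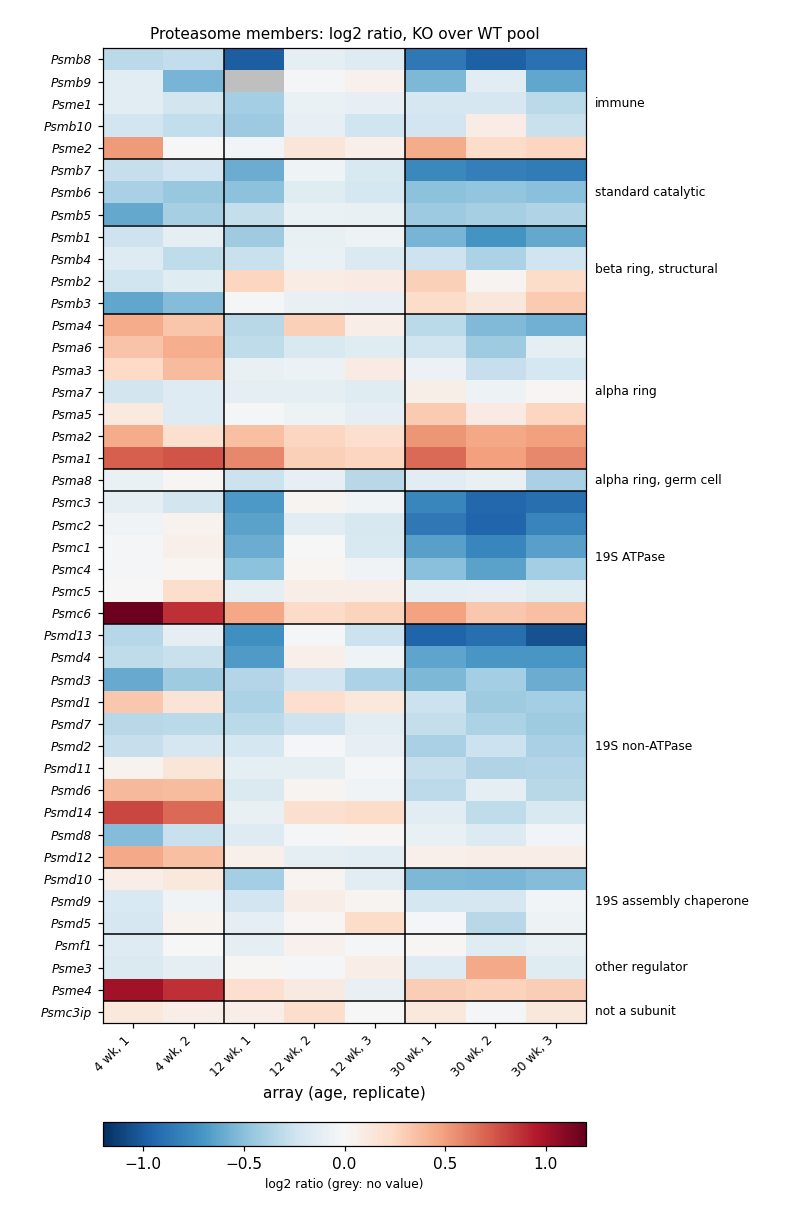
Log2 ratio of KO over WT pool for each of the 44 members (rows, grouped by place in the particle) on each of the 8 arrays (columns, by age and replicate), with blue for lower and red for higher in KO. Blue rows gather at 30 weeks in the 19S ATPases and the standard catalytic subunits, replicate 1 of 12 weeks has the same rows in blue, and Psmc6 and Psme4 are the reddest at 4 weeks.

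Among the immune subunits, Psmb8 fell at 30 weeks and had the lowest ratio of the 5. Psmb8 encodes the immune counterpart of Psmb5. Its ratios at 30 weeks were −0.86, −0.98 and −0.90, at 12 weeks −0.99, −0.11 and −0.15, and at 4 weeks −0.32 and −0.30. The log2 signals behind the 30-week ratios were 13.06, 12.79 and 13.05 in KO, against 13.92, 13.77 and 13.95 in the WT pool. Every KO value at 30 weeks thus lay below every WT pool value of that age. The mean ratio at 30 weeks was −0.91 ± 0.15 (SE of the fit, n = 3; adjusted p = 0.0027, limma), a signal 0.531 of that of the WT pool. At 12 weeks the mean of −0.42 ± 0.15 rested on replicate 1 and was not called (adjusted p = 0.137, limma), and at 4 weeks −0.31 ± 0.18 was not called (adjusted p = 0.268, limma). With arrays centred on their median Psmb8 stayed lower at 30 weeks, at −0.56 relative to the median of all genes. A second probe of Psmb8 averaged −0.77 ± 0.11 at 30 weeks (SD, n = 3).

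Psmb9, the counterpart of Psmb6, had ratios of −0.54, −0.14 and −0.62 at 30 weeks, −0.02 and 0.06 on the 12-week arrays with a value, and −0.13 and −0.55 at 4 weeks. Its spot on replicate 1 of 12 weeks carried an outlier flag and was dropped, so its 12-week fit used 2 arrays. The 30-week mean of −0.43 ± 0.12 was called lower (adjusted p = 0.022, limma), with replicate 2 well above the other arrays, but was −0.05 relative to the median of all genes under median centring. Psmb10, the counterpart of Psmb7, had −0.23, 0.09 and −0.26 at 30 weeks. It was called at no age, its mean at 30 weeks being −0.14 ± 0.09 (adjusted p = 0.267, limma). Psme1 and Psme2, the subunits of the PA28 cap, went opposite ways at 30 weeks. Psme1 had −0.20, −0.20 and −0.32 and was called lower (−0.24 ± 0.08, adjusted p = 0.0359, limma), though under median centring it stood 0.17 above the median of all genes. Psme2 had 0.44, 0.22 and 0.26 and was called higher (0.31 ± 0.10, adjusted p = 0.0369, limma). Its other probe averaged 0.04 ± 0.11 (SD, n = 3) at that age, so the probes of Psme2 disagree in size.

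At 4 weeks 0 of the 5 immune subunits were called and at 12 weeks 0 of 5, against 22.7% and 2.61% of all genes. At 30 weeks 3 were called lower and 1 higher, against 18.4% and 20.7% of all genes. Over the mean of the ages 4 were called lower (Psmb8, Psmb9, Psmb10 and Psme1) and Psme2 higher, against 18.7% and 25.4% of all genes. The median of the immune subunits minus the median of the other members was −0.18 ± 0.17 at 4 weeks (SD, n = 2), −0.11 ± 0.09 at 12 weeks and 0.03 ± 0.13 at 30 weeks (SD, n = 3 each). On the 30-week arrays it was 0.00, 0.17 and −0.08, so its sign varied between mice, and the lower ratios at that age were shared by both sets. This difference has no test of its own.

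**Figure D2:**
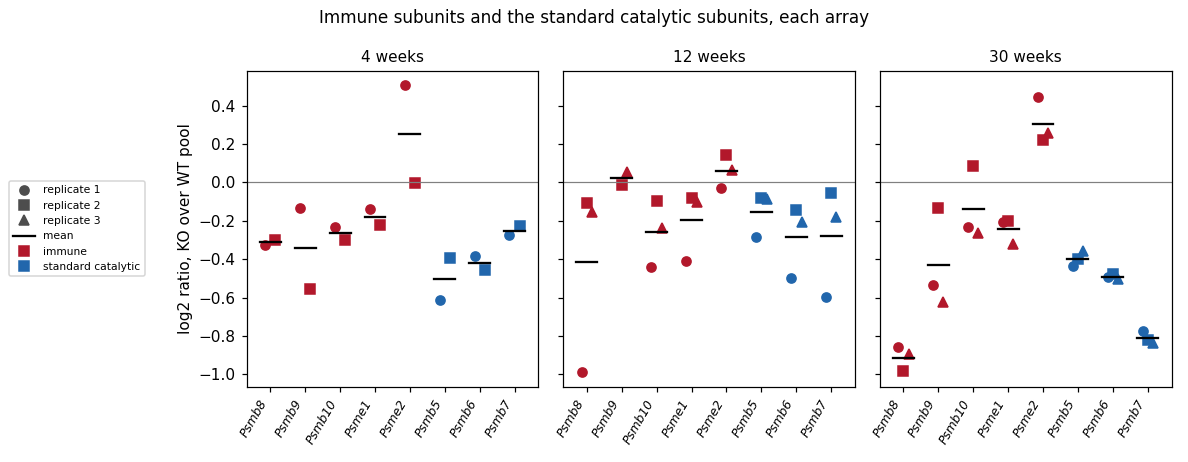
Log2 ratio of KO over WT pool on each array for the 5 immune subunits (red) and the 3 standard catalytic subunits (blue), with 1 panel per age, a symbol per replicate and a black bar for the mean. Psmb8 and Psmb7 lie lowest at 30 weeks, Psme2 lies above 0 there, and the 12-week circles (replicate 1) lie below the other replicates for Psmb8 and for all 3 standard subunits.

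The brightest probes of Psmb8 and Psmb5 lie in corresponding parts of the coding sequence and are shown because they separate an immune subunit from the one it replaces. Capitals mark bases that are equal when the probes are aligned without gaps, which gave 31 equal bases of 50 aligned (62%). For Psmb9 with Psmb6 the best alignment gave 56.2% and for Psmb10 with Psmb7 41.1%. The Psmb8 probe lies at chr17:33811038-33811097 on the plus strand and the Psmb5 probe at chr14:53568529-53568588 on the minus strand (mm8, as in the 4-week files). The second Psmb8 probe, at chr17:33811095-33811419 across a splice junction, is given for comparison.
Psmb8 brightest probe: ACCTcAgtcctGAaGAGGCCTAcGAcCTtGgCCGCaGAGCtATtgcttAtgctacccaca
Psmb5 brightest probe: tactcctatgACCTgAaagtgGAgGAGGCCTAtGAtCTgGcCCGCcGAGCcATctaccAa
Psmb8 second probe: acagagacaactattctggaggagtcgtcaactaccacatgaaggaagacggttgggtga

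Psmb8, Psmb9, Tap1 and Tap2 lie side by side in the class II region of the major histocompatibility complex on chromosome 17. Tap1 and Tap2 form the pump that carries peptides to class I molecules. Psmb9 and Tap1 are read in opposite directions from starts 225 bases apart, at chr17:34187331-34187555 (GRCm38.p6, RefSeq), so that stretch is the promoter of both genes. Tap1 had −0.89, −1.12 and −0.99 at 30 weeks (−0.999 ± 0.14, adjusted p = 0.00173, limma), −0.74, 0.18 and −0.25 at 12 weeks, and −0.38 and −0.31 at 4 weeks. Tap1, Tap2 (−1.04 ± 0.13), Psmb8 and Psmb9 were thus all called lower at 30 weeks, and none of the 4 at 4 or 12 weeks. The stretch between the Psmb9 and Tap1 starts is shown on the strand of Tap1, with a CCAAT box in capitals. The 250 bases before the Psmb8 start (chr17:34197945-34198194, plus strand) are shown with a match to the interferon gamma element GAS in capitals.
Psmb9 to Tap1: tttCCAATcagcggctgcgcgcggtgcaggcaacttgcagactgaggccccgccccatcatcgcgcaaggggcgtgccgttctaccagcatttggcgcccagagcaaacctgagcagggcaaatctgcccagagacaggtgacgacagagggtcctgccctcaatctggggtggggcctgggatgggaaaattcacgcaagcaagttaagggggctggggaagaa
Psmb8 upstream: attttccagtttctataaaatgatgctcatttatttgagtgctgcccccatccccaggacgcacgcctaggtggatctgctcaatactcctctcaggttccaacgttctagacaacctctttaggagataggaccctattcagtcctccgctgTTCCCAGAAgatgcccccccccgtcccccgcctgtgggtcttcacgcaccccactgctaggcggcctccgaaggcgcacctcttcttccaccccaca

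Motifs were counted on both strands in the 250 bases before each start of 32851 RefSeq promoters, in which 37 of the 44 members were found by symbol. GAS, written TTCNNNGAA, was in 7.02% of all promoters and in 1 member, Psmb8, from base 97 before the start. The ISRE core, GAAA and GAAA with 2 bases between them, was in 2.98% of all promoters, in 3 members and in none of the 5 immune subunits. The antioxidant element TGACNNNGC, bound by relatives of Nfe2l1, was in 10.16% of all promoters and in 5 members (Psmb5, Psmb6, Psmc6, Psmd9 and Psmd12). TTCG, the core bound by DEAF1, was in 38.67% of all promoters and in 23 members, and overlaps the longer TTCGG, in 15.81% and in 10 members. CCAAT was in 33.85% and in 14 members. A member counted if any of its promoters matched, while the share of all promoters counts each one singly, so these units differ. A match describes letters in this window only, and base composition was not equalised between members and other promoters.

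The 3 standard catalytic subunits were all called lower at 30 weeks, where 18.4% of all genes were called lower. Psmb7, the trypsin-like subunit, had −0.77, −0.82 and −0.84 at 30 weeks, −0.60, −0.06 and −0.18 at 12 weeks, and −0.27 and −0.23 at 4 weeks. Its 30-week mean of −0.81 ± 0.10 (adjusted p = 0.00108, limma) put the KO signal at 0.57 of that of the WT pool, and it was −0.70 relative to the median of all genes under median centring. Psmb6, the caspase-like subunit, had −0.49, −0.48 and −0.50 at 30 weeks (−0.49 ± 0.08, adjusted p = 0.00209, limma). Psmb5, the chymotrypsin-like subunit, had −0.44, −0.40 and −0.36 (−0.40 ± 0.07, adjusted p = 0.00336, limma). Psmb5 and Psmb6 were also called lower at 4 weeks, with ratios of −0.61 and −0.40 for Psmb5 and −0.39 and −0.46 for Psmb6, though under median centring they stood at −0.09 and 0.01 from the median of all genes. At 30 weeks Psmb5 and its counterpart Psmb8 were both called lower, as were Psmb6 and Psmb9, while of Psmb7 and Psmb10 only Psmb7 was.

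The remaining subunits of the 20S core were mixed. Of the 7 alpha subunits 4 were called higher at 4 weeks and 0 lower, and at 30 weeks 3 were higher and 2 lower. Of all genes 15.3% were higher and 7.38% lower at 4 weeks, and 20.7% and 18.4% at 30 weeks. Psma1 was called higher at every age, with 0.72 and 0.75 at 4 weeks, 0.57, 0.28 and 0.26 at 12 weeks, and 0.68, 0.49 and 0.57 at 30 weeks. Its means were 0.73 ± 0.09, 0.37 ± 0.08 and 0.58 ± 0.08 (adjusted p = 0.00156, 0.0472 and 0.00136, limma). The call at 12 weeks was lost under most alternatives, with an adjusted p of 0.0843 for the scanner's ratio, 0.0677 with a replicate block and 0.166 without replicate 1 of that age (limma). Psma2 was higher at 4 weeks (0.32 ± 0.08) and at 30 weeks (0.50 ± 0.07, adjusted p = 0.00146, limma), and its ratio was above 0 on all 8 arrays. Psma6 was higher at 4 weeks (0.39 ± 0.09) and lower at 30 weeks (−0.26 ± 0.07), though at 30 weeks its ratio turned to 0.20 under median centring and the call was lost with the scanner's ratio (adjusted p = 0.066, limma) and without replicate 2 (adjusted p = 0.154, limma). Psma4 was lower at 30 weeks (−0.48 ± 0.11), Psma5 higher (0.23 ± 0.07), and Psma3 was higher at 4 weeks only (0.31 ± 0.08). Psma7 was called at no age, and neither was Psma8, the alpha subunit of germ cells (−0.20 ± 0.08 at 30 weeks).

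Among the structural beta subunits Psmb1 had −0.56, −0.72 and −0.62 at 30 weeks (−0.63 ± 0.08, adjusted p = 0.00138, limma) and Psmb4 was lower too (−0.29 ± 0.07), though its ratio turned to 0.23 under median centring. Psmb3 had −0.62 and −0.52 at 4 weeks (−0.57 ± 0.07, adjusted p = 0.00177, limma) but 0.22, 0.14 and 0.32 at 30 weeks (0.23 ± 0.06, adjusted p = 0.0189, limma). Its other probe averaged −0.22 at 4 weeks and −0.08 at 30 weeks, so the rise at 30 weeks was on the brightest probe only. Psmb2 was called at no age (0.18 ± 0.07 at 30 weeks).

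The 19S cap held most of the lower calls at 30 weeks. Of its 17 subunits 12 were called lower and 1 higher, against 7 lower and 4 higher among the 14 standard subunits of the core. Of all genes 18.4% were called lower and 20.7% higher at that age. Over the 19S subunits the median ratio was −0.36 at 30 weeks, −0.11 at 12 weeks and 0.01 at 4 weeks. The difference between cap and core was not tested. At 4 weeks 4 cap subunits were called higher and 3 lower, where 15.3% of all genes were called higher and 7.38% lower.

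Of the 6 ATPases, which form the ring that unfolds and threads the substrate, Psmc1, Psmc2, Psmc3 and Psmc4 were lower at 30 weeks. Psmc3 had −0.79, −0.94 and −0.90 at 30 weeks, −0.69, 0.03 and −0.05 at 12 weeks, and −0.11 and −0.22 at 4 weeks. The 30-week log2 signals of Psmc3 were 9.93, 9.79 and 9.74 in KO, against 10.72, 10.73 and 10.64 in the WT pool. These groups did not overlap, and the mean ratio was −0.88 ± 0.13 (adjusted p = 0.00174, limma). Psmc2 had −0.86, −0.95 and −0.79 (−0.87 ± 0.10, adjusted p = 0.000989, limma), Psmc1 averaged −0.70 ± 0.10 and Psmc4 −0.51 ± 0.10. At 4 weeks these 4 genes lay between −0.16 and 0.02 and none was called. A second probe of Psmc2 averaged −0.06 ± 0.16 (SD, n = 3) at 30 weeks, so the fall of Psmc2 was on the brightest probe only. Both probes of Psmc4 were lower, the other one at −0.46 ± 0.03 (SD, n = 3).

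Psmc6 went the other way from its partners in the ring. It had 1.18 and 0.87 at 4 weeks, 0.46, 0.23 and 0.27 at 12 weeks, and 0.49, 0.32 and 0.36 at 30 weeks. At 4 weeks the log2 signals were 12.75 and 12.18 in KO, against 11.57 and 11.30 in the WT pool. The mean at 4 weeks was 1.03 ± 0.10 (adjusted p = 0.00059, limma), a 2.04-fold signal and the highest ratio of any member at any age, and the mean at 30 weeks was 0.39 ± 0.08 (adjusted p = 0.00621, limma). Its other probe averaged 0.69 at 4 weeks and 0.52 at 30 weeks.

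The last ATPase, Psmc5, depended on the probe. Its brightest probe had −0.12, −0.10 and −0.14 at 30 weeks (−0.12 ± 0.07, adjusted p = 0.198, limma), while its other probe, toward the 5′ end of the transcript, had −1.47, −1.59 and −1.50 there. On replicate 1 of 12 weeks the values were −0.12 and −1.39. The brightest probe lies at chr11:106078968-106079152 and the other at chr11:106077339-106077538, both on the plus strand (mm8) and across splice junctions. They are shown because they lie in the coding part of 1 transcript and give different answers.
Psmc5 brightest probe: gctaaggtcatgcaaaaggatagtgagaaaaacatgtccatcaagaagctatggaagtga
Psmc5 other probe: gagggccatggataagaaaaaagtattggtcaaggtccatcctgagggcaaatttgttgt

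Of the 11 non-ATPase subunits 8 were called lower at 30 weeks and 0 higher, against 18.4% and 20.7% of all genes. Psmd13, a structural lid subunit, had the lowest 30-week ratio of all 44 members, with −0.96, −0.90 and −1.05 at 30 weeks, −0.74, −0.01 and −0.26 at 12 weeks, and −0.35 and −0.11 at 4 weeks. Its log2 signals at 30 weeks were 7.58, 7.61 and 7.45 in KO, against 8.54, 8.51 and 8.50 in the WT pool. The mean of −0.97 ± 0.12 (adjusted p = 0.00124, limma) equals 0.51 of the WT pool signal and was the same, −0.97, relative to the median of all genes under median centring. The Psmd13 probe lies on chromosome 7, 414.6 kb from the Deaf1 probe (mm8). Irf7 and Tmem80, picked genes closer to Deaf1, averaged −1.58 ± 0.10 and −2.07 ± 0.19 at 30 weeks. Other genes of the region are not given here, and a bearing of position on these ratios was not tested. Psmd4, a ubiquitin receptor, had −0.64, −0.70 and −0.70 (−0.68 ± 0.12, adjusted p = 0.00398, limma), and its other probe averaged −0.32 ± 0.15 (SD, n = 3). Psmd3, a lid subunit, was lower at 4 weeks (−0.51 ± 0.08) and at 30 weeks (−0.51 ± 0.07, adjusted p = 0.00138, limma), and had a negative ratio on all 8 arrays. Psmd7, another lid subunit, was also lower at both ages (−0.33 ± 0.08 and −0.36 ± 0.06). Its other probes averaged 0.28 and −0.39 at 4 weeks, and −0.02 and −0.74 at 30 weeks, so the probes of Psmd7 disagree.

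Psmd1, Psmd2, Psmd6 and Psmd11 were the other subunits called lower at 30 weeks, at −0.25 to −0.37. Psmd14, the enzyme that removes ubiquitin chains from the substrate, had 0.80 and 0.68 at 4 weeks (0.74 ± 0.09, adjusted p = 0.00162, limma). At 30 weeks it had −0.13, −0.30 and −0.18, which was not called (adjusted p = 0.0643, limma). Its other probe that passed the filter had −0.47, −0.92 and −0.53 at 30 weeks, and 0.62 and 0.65 at 4 weeks. Psmd12 (0.40 ± 0.08) and Psmd6 (0.38 ± 0.08) were higher at 4 weeks as well, and Psmd8 was lower (−0.39 ± 0.09). Under median centring all 6 lower calls of 4 weeks changed sign as ratios and lay between −0.14 and 0.06 from the median of all genes.

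Of the chaperones that assemble the cap, Psmd5, Psmd9 and Psmd10, only Psmd10 (gankyrin) was called, with −0.54, −0.55 and −0.52 at 30 weeks (−0.54 ± 0.08, adjusted p = 0.0021, limma). Psme4, which encodes the nuclear cap PA200, had 1.01 and 0.87 at 4 weeks, 0.21, 0.11 and −0.09 at 12 weeks, and 0.30, 0.28 and 0.30 at 30 weeks. It was called higher at 4 weeks (0.94 ± 0.09, adjusted p = 0.000517, limma) and at 30 weeks (0.29 ± 0.07, adjusted p = 0.0124, limma). Its other probe well above background on all 8 arrays averaged 0.39 at 4 weeks but −0.27 ± 0.08 at 30 weeks (SD, n = 3). The rise at 4 weeks was thus smaller on that probe, and at 30 weeks the sign was opposite. The remaining probes averaged −0.04 and 0.04 at 4 weeks. They were dim, well above background in the WT channel on 0 and 6 arrays, so they cannot gauge the size of the rise. Psme3, the PA28 gamma cap, had −0.16, 0.45 and −0.14 at 30 weeks and was called at no age. Its high value was on the array with the raised acinar genes. Psmf1, an inhibitor of the 20S core, and Psmc3ip were called at no age, at −0.07 ± 0.07 and 0.08 ± 0.07 at 30 weeks, although another probe of Psmf1 averaged −0.48 ± 0.11 there (SD, n = 3).

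The core's own assembly chaperones are not members by name but were found through RefSeq under older names. Psmg3 had −0.54 and −0.40 at 4 weeks (−0.47 ± 0.08, adjusted p = 0.00439, limma) and was not called at 30 weeks (0.17 ± 0.06, adjusted p = 0.0575, limma). Psmg2 was called higher at 4 weeks (0.33 ± 0.10, adjusted p = 0.0491, limma) and Psmg1 at no age. Psmb11, the beta subunit of the thymic cortex, ranged from −1.86 to 0.62 over the 8 arrays and was called at no age. No probe was matched to Psmg4.

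The 12-week arrays did not give 1 answer for the members. On replicate 1 the members' median was −0.23, close to −0.23, −0.27 and −0.29 on the 30-week arrays, while on replicates 2 and 3 it was −0.02 and −0.06. Over 43 members the ratios of replicate 1 correlated with those of the 30-week arrays at Pearson's r of 0.93, 0.89 and 0.92, and those of replicates 2 and 3 at 0.35 to 0.55 (44 members). These are descriptions across genes, which are no independent replicates. Over all genes the same r was 0.61, 0.51 and 0.59 for replicate 1, and 0.06 to 0.31 for replicates 2 and 3. The likeness of replicate 1 to 30 weeks was thus not confined to the members. For Psmb8 the difference lay in the KO channel, with log2 signals of 12.88, 13.72 and 13.73 in KO on the 12-week arrays, against 13.87, 13.83 and 13.88 in the WT pool. All 3 arrays of 12 weeks were on 1 slide, together with replicate 1 of 30 weeks.

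**Figure D3:**
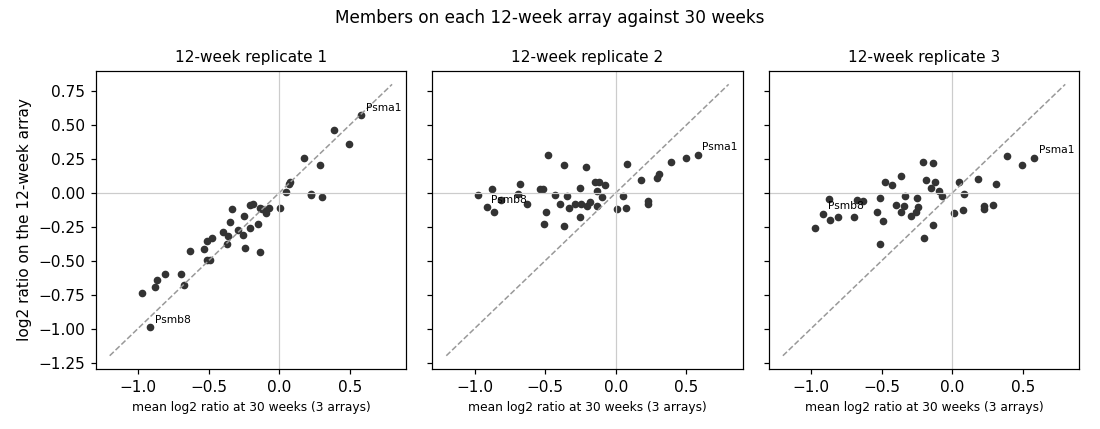
Log2 ratio of each member on a 12-week array (vertical) against its mean ratio on the 3 arrays of 30 weeks (horizontal), with 1 panel per 12-week array and a dashed line of equality. On replicate 1 the members follow the line, with Psmb8 at −0.99 against −0.91, and on replicates 2 and 3 most lie near 0.

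Between 12 and 30 weeks the result turned on that array. For the ratio at 30 minus 12 weeks limma called 0 members, with a background of 0.777%, 0.32% higher and 0.456% lower, while an unadjusted p under 0.05 was found for 19 members and for 21.2% of all genes. Without replicate 1 of 12 weeks, 14 members were called, all with a lower ratio at 30 weeks, among 15% of all genes called (7.92% lower). Those 14 were 4 of the 6 ATPases (Psmc1 to Psmc4), Psmd1, Psmd4, Psmd13 and Psmd14 of the cap, Psmd10, Psma4, Psmb1, Psmb6, Psmb7 and Psmb8. In that fit Psmb8 differed by −0.78 ± 0.08 and Psmc3 by −0.87 ± 0.09. The array left out was singled out by its values for these same members, and leaving it out favours such calls. These 14 calls are therefore a description and no test of a change between the ages. A lower ratio at 30 weeks can lie in the KO mice or in the pool, and slide 3 held only 30-week arrays. The WT channels of these ages also differed in the signal of Ddx3y. With slide as a fixed term 0 genes were called at all, so that fit says nothing about the members.

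Between 4 and 12 weeks 7 members differed, with a background of 6.98%, 1.37% higher and 5.61% lower. The ratio was lower at 12 than at 4 weeks for Psme4 (−0.87 ± 0.11), Psmc6 (−0.71 ± 0.13), Psmd14 (−0.63 ± 0.12), Psma6 (−0.60 ± 0.12), Psmd12 (−0.46 ± 0.10) and Psmd6 (−0.44 ± 0.11). It was higher for Psmb3 (0.51 ± 0.10), whose other probe averaged −0.22 at 4 weeks and −0.13 at 12 weeks. The other probes of Psmd12 averaged 0.17 and 0.24 at 4 weeks, and 0.11 and −0.20 at 12 weeks. The size of the difference for Psmb3 and Psmd12 thus depended on the probe. The other Psmd14 probe that passed the filter averaged 0.63 and −0.19 at these ages, and the other Psmc6 probe 0.69 and 0.29. For Psme4 the difference turned to 0.10 with the probe nearest the 5′ end, a dim probe well above background on only 6 arrays in each channel. The adjusted p ran from 0.00703 for Psme4 to 0.0486 for Psmd6 (limma). The 4-week arrays were on a slide and a scanner of their own, so age and scanner cannot be told apart. Nor can age be told apart from the difference of the WT channels in Ddx3y. Without replicate 1 of 4 weeks, 0 members were called in this difference and 3 at 4 weeks itself (Psma1, Psmc6 and Psme4). That fit called 1 gene of all for this difference and 2.71% of all genes at 4 weeks.

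Members with more than 1 probe showed lower ratios toward the 5′ end of the transcript on the arrays where the family was low. For 13 members with probes of 1 accession at least 60 bases apart on the genome, the ratio of the 5′ probe minus that of the 3′ probe had a median of −0.27, −0.29 and −0.27 on the 30-week arrays. It was −0.21, −0.01 and 0.01 on the 12-week arrays and −0.12 and −0.03 at 4 weeks. Over 4139 such pairs of all genes the medians were −0.15, −0.14 and −0.14 at 30 weeks, −0.16, −0.03 and −0.03 at 12 weeks, and −0.10 and −0.08 at 4 weeks. Replicate 1 of 12 weeks thus resembled the 30-week arrays in this measure too. The widest gaps at 30 weeks were those of Psmc5 (−1.35, −1.49 and −1.36), Psmd2 (−0.53, −0.99 and −0.73) and Psmd12 (−0.55, −0.72 and −0.54). At 4 weeks Psme4 had the widest (−0.98 and −0.82), with a 5′ probe well above background on only 6 arrays in each channel. The part of this difference in the members' ratios was not tested. Taking the probe nearest the 3′ end of each gene, 30 members were called at 30 weeks, where 38.3% of all genes were called. With the probe nearest the 5′ end 30 members were called as well, beside 38.9% of all genes. Only 5 members changed probe in the first setting and 10 in the second, so these counts say little about probe position.

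**Figure D4:**
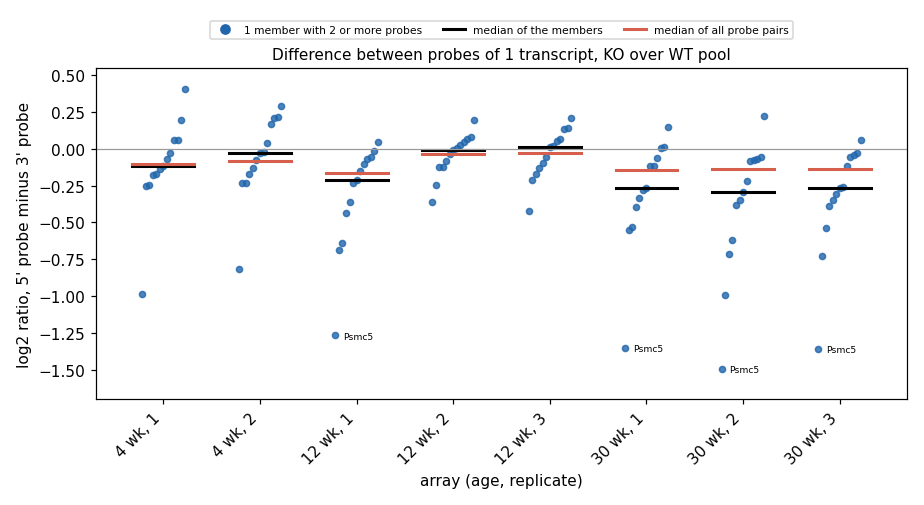
Log2 ratio at the 5′ probe minus that at the 3′ probe of the same transcript for 13 members (blue points) on each array, with the members' median in black and the median of 4139 pairs of all genes in red. The members' medians are −0.21 on replicate 1 of 12 weeks and −0.27, −0.29 and −0.27 at 30 weeks, and the lowest point on these 4 arrays is Psmc5.

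Of 23 measured genes that work with the proteasome (27 listed) 7 were higher and 3 lower at 30 weeks, and 5 and 0 at 4 weeks. Of all genes 20.7% were higher and 18.4% lower at 30 weeks, and 15.3% and 7.38% at 4 weeks. The list was not tested against these shares. Uba1, the enzyme that starts ubiquitin transfer, was lower at 30 weeks (−0.60 ± 0.09), as was Ubqln4, a shuttle factor (−0.53 ± 0.08). Sem1, a small subunit of the cap outside the naming rule, was higher (0.47 ± 0.07). Uchl5, a ubiquitin-removing enzyme bound to the cap, was higher at 4 weeks (1.06 ± 0.12) and at 30 weeks (0.38 ± 0.09). Nfe2l1, the factor that drives proteasome genes when the particle is short, was called at no age (−0.01 ± 0.08 at 30 weeks), nor was Pomp, the chaperone of core assembly (−0.15 ± 0.11).

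Of 11 measured genes (12 listed) of class I peptide loading 8 were lower and 2 higher at 30 weeks, and 4 higher and 0 lower at 4 weeks. For this and the lists that follow, the shares of all genes were 20.7% higher and 18.4% lower at 30 weeks. At 4 weeks they were 15.3% higher and 7.38% lower. Beside Tap1 and Tap2, Calr, a chaperone of class I molecules, was lower at 30 weeks (−0.77 ± 0.07). Erap1, which trims peptides, was higher (0.50 ± 0.07). Of 15 genes of the interferon gamma axis 2 were higher and 1 lower at 30 weeks, and 5 higher and 1 lower at 4 weeks. Irf1, a factor that drives the immune subunits, had 0.19, 0.20 and 0.12 and was not called (adjusted p = 0.053, limma). Cxcl10, an interferon-induced chemokine, was called higher at every age, with 1.01 at 4 weeks, 1.03 at 12 weeks and 0.73 ± 0.19 at 30 weeks. Markers of the node's cells were counted as well, beside the same shares of all genes. These short lists were not tested against those shares. At 30 weeks, 4 of 8 genes of dendritic cells and macrophages were lower and 2 higher, 2 of 7 B cell genes lower and 1 higher, 2 of 6 T cell genes lower and 2 of 4 plasma cell genes lower. Their medians over the 30-week arrays ran from −0.28 to −0.17 for the dendritic and macrophage list, −0.44 to −0.11 for B cells and −0.33 to −0.09 for T cells. Also at 30 weeks 1 of 6 fibroblastic reticular cell genes was higher, and of 5 endothelial genes 1 was higher and 1 lower. Of 7 cycling genes 2 were higher and 1 lower, and 0 of 5 adipocyte and 0 of 8 acinar genes were called. At 4 weeks 3 of 6 fibroblastic reticular cell genes were higher (Lum 1.36 and Dcn 1.33 among them), 2 of 5 endothelial genes (Lyve1 1.71), 3 of 7 B cell genes (Pax5 1.197), 1 of 4 plasma cell genes and 2 of 7 cycling genes (Mki67 1.16). At that age 2 of 8 dendritic cell and macrophage genes and 1 of 5 adipocyte genes were lower, the adipocyte median being −1.02, and 0 of 6 T cell and 0 of 8 acinar genes were called. The part of these cells in the members' ratios was not tested.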

How the data were processed

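The arrays were 2-colour Agilent mouse arrays with 45018 spots, read by Agilent Feature Extraction 9.5.3.1 (4 weeks) or 10.2.1.3 (12 and 30 weeks), per the file headers. Red and green mean and background intensity values were used as deposited. The scanner's own log10 ratio and the authors' deposited log2 value table were alternatives, and this table correlated with log2 of red over green processed signal at r of 0.99998 to 0.99999. In limma 3.58.1 (R 4.3.3), background was corrected by normexp with offset 50 and ratios were normalised within arrays by loess. Outlier-flagged spots were dropped, leaving 27 missing gene values. Probes were kept when well above background in 1 channel on all arrays of an age (27464 of 41174), and the brightest stood for each of 18410 genes. Signals per channel were scaled between arrays for description only. A mean per age was fitted on all 8 arrays (5 residual degrees of freedom), with Benjamini-Hochberg adjustment over all genes. The steps were tested on simulated data. Gene names came from RefSeq by accession (24375 probes), symbol (6301) or synonym (2426), and otherwise from the files (8072). Array number limits precision. Members and lists were chosen with earlier results of these data known. Genes named were the immune, catalytic, regulator and chaperone genes, up to 5 called members per direction and contrast with 1 sign on every array, and up to 3 genes per list. Other genes named, among them remaining called members, second probes, Irf1 and Nfe2l1, were chosen after their values were seen.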

Additional observations from a re-analysis of the deposited data

Results flagged for a closer look

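The change of the KO over WT pool ratio between ages passed limma's test for 7 members, all in the step to 12 weeks from 4 weeks, where 6.98% of all genes were called. As the ratio at 12 minus 4 weeks, it was −0.87 for Psme4, −0.71 for Psmc6, −0.63 for Psmd14, −0.60 for Psma6, −0.46 for Psmd12, −0.44 for Psmd6 and 0.51 for Psmb3. The 4-week arrays had their own slide, scanner and pool, which cannot be told apart from age. The same holds for sex, since the WT channels of 4 and 12 weeks differed in the Y chromosome gene Ddx3y. The Psme4 probe nearest the 5′ end lay well above background on only 6 arrays in each channel. The other Psmb3 probe averaged −0.22 at 4 weeks and −0.13 at 12 weeks, and 1 of the other Psmd12 probes 0.17 and 0.11. The remaining Psmd12 probe averaged 0.24 and −0.20. The count was 0 without replicate 1 of 4 weeks, 0 under median centring and 2 with a replicate block, and Psme4 turned to 0.10 with the probe nearest the 5′ end.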

How the results depend on the processing

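Each setting was changed alone, except the replicate block joined with removal of the GC trend and the fit without both replicates 2. Of 53 called member values, 53 kept direction and call without the filter, with a stricter filter and with slide as a random block. The used probes of all members passed every filter, so the filter settings left their ratios unchanged and are no sign of stability. With the probe nearest the 3′ end 50 were kept, but only 5 of the 44 members changed probe there. That alternative was chosen after seeing the data, as were the 5′ probe and the fit without both replicates 2. Fewer were kept under median centring (20), without replicate 1 of 4 weeks (32), with a replicate block (36), with the block after removal of the GC trend (35) and without replicate 1 of 30 weeks (36). The random block had a within-slide correlation of −0.26, below 0, and its larger counts are no sign of stability. Median centring without loess called 9749 genes and 39 members at 4 weeks, 10307 and 37 at 12 weeks, 13 members at 30 weeks, 51 genes and 0 members for 12 minus 4 weeks, and 7 genes for 30 minus 12 weeks. It put the immune minus other median at 0.11 at 12 weeks and 0.25 at 30 weeks. It turned the sign at 4 weeks of Psmd3 (0.41), Psmd8 (0.50), Psmb3 (0.35), Psmb5 (0.40), Psmd7 (0.54) and Psmb6 (0.50), and at 30 weeks of Psme1 (0.33), Psmd3 (0.023), Psmb4 (0.23), Psmd6 (0.087), Psmb9 (0.11), Psma6 (0.20), Psmd2 (0.075) and Psmd11 (0.11). The probe nearest the 5′ end turned Psmb3 at 30 weeks (−0.077) and, with a dim probe, Psme4 for 12 minus 4 weeks (0.10). These causes were not tested.

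At 4 weeks the scanner's ratio called 6408 genes, the authors' values 6493 and slide as a random block 6617. At 12 weeks the scanner's ratio called 174 genes and 0 members, the authors' values 180 and 0, the mean of probes 313 and 0, the random block 8977 and 27, removal of the probe GC trend 0 members, and no filter, the stricter filter and the 3′ and 5′ probes 2 members each. For 12 minus 4 weeks the scanner's ratio called 2150 genes, the authors' values 2195, the mean of probes 792 and 2 members, the random block 4480 and 12, and the 5′ probe 833 and 3. For 30 minus 12 weeks the scanner's ratio called 5 genes, the authors' values 2, the random block 2339 and 11 members, slide as a fixed term 0, and the arrays of the slide with both ages 37. Without both replicates 2, 1845 genes and 5 members were called at 12 weeks and 333 genes for 30 minus 12 weeks.

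The deviations of same-numbered replicates correlated at r of −0.08 to 0.24, not above 0.1 for every pair, so the numbers were not taken to pair the samples. With a replicate block, 204 genes and 0 members were called at 12 weeks, 5375 genes in the mean, 359 and 2 for 12 minus 4 weeks and 0 for 30 minus 12 weeks. With the block after removal of the GC trend these were 2 and 0, 4399 and 16, 364 and 2, and 0.

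Leaving out 1 array gave 499 to 5178 genes and 3 to 20 members at 4 weeks, 18 to 1852 and 0 to 6 at 12 weeks, 3939 to 7953 and 20 to 31 at 30 weeks, 5125 to 8725 and 21 to 29 in the mean, 1 to 1769 and 0 to 7 for 12 minus 4 weeks, and 0 to 2765 and 0 to 14 for 30 minus 12 weeks. The lows at 4 weeks came without its replicate 1, and the highs for 30 minus 12 weeks without replicate 1 of 12 weeks. The immune minus other median ran from −0.31 to −0.06 at 4 weeks, −0.14 to −0.06 at 12 weeks and −0.04 to 0.09 at 30 weeks.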
